A study of Mus musculus with 5 samples.

Results

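The genes described here are 8 genes known from the neural crest, from glia and from growing neurons: Slitrk6, Nrcam, L1cam, Ncam1, Chl1, Cadm1, Ngfr and Nes. They were chosen by gene symbol from the 46959 symbols in the deposited count tables, with the fold changes of caMNK over pBABE in these same libraries known, so their differences between the groups are given as a description. All 8 symbols were found, and 7 passed the filter on low counts that left 17026 genes for testing. Chl1 did not pass. Of the 8, 7 encode proteins of the cell surface, whereas nestin, the product of Nes, is an intermediate filament protein inside the cell.

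The series compared mouse D4M.3A melanoma cells carrying a constitutively active MNK1 kinase (caMNK, n = 3 libraries) with the same line carrying the pBABE retroviral vector (pBABE, n = 2 libraries, the control). The labels give the strain as C57BL/6 and passages 7 to 12 for both groups. MNK1 phosphorylates the cap-binding translation factor eIF4E. Each group is 1 transduced line, so the kinase and anything else that sets these lines apart cannot be told apart. Its libraries are described as biological replicates, with no word on separate cultures, and the p-values measure the spread between these libraries, which may be technical. In such bulk RNA, fewer cells with a transcript and less of it per cell cannot be told apart either.

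Melanocytes come from the neural crest, and melanoma cells can take up a state in which pigment genes are low and genes of the early crest and of Schwann cell precursors are on. In human melanoma this crest-like state is recognised by the surface receptor p75, encoded by NGFR, together with adhesion molecules such as L1CAM and NCAM1, and it is known for its tolerance of drugs against the BRAF pathway. The adhesion proteins named here hold cells together or guide axons by binding partners on neighbouring cells, and their short cytoplasmic tails attach to ankyrins or to proteins of the spectrin and actin skeleton.

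Total RNA was sequenced, and the deposited values are raw read counts over whole gene bodies, introns included and without strand. Levels are given as CPM, counts scaled to a common library size, on library totals scaled by the TMM method. The libraries held between 27827199 and 48794336 counts. The introduced gene, Mknk1, measured 163 ± 7.22 CPM in caMNK (SD, n = 3) and 15.9 ± 1.05 CPM in pBABE (SD, n = 2). Of 17026 tested genes, 4.42% rose and 3.52% fell in caMNK, 7.94% in all, at an adjusted p under 0.05 in edgeR's quasi-likelihood test. In 22.3% of tested genes every caMNK library lay above both pBABE libraries, and in 22.6% every one lay below. Mitochondrial and nuclear transcripts moved with the groups. Of 10 tested mitochondrial mRNAs, 6 rose and 0 fell, with a summed level of 18772 to 21665 CPM in caMNK and 12290 to 13533 CPM in pBABE. Of 7 tested nuclear non-coding RNAs, 3 rose and 1 fell, and their summed level was 654 to 925 CPM in caMNK against 398 to 414 CPM in pBABE. The part of these RNA classes in the values of the neural genes was not tested.

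The level of each gene was set against its length first, because the 8 genes span very different stretches of the genome. Per kilobase of the deposited gene length, Nes was the highest, with 53.3 ± 1.38 CPM per kb in caMNK and 43.6 ± 2.99 CPM per kb in pBABE. Slitrk6 followed in caMNK at 1.19 ± 0.0994 CPM per kb, and measured 0.264 ± 0.0127 CPM per kb in pBABE. Cadm1 stood at 0.575 ± 0.0433 and 0.694 ± 0.0572 CPM per kb in caMNK and pBABE, and Ncam1 at 0.310 ± 0.0547 and 0.322 ± 0.0148 CPM per kb. On this scale Slitrk6 was above Cadm1 and Ncam1 in every caMNK library, whereas in both pBABE libraries it was below both. Nrcam and Ngfr were close to each other in caMNK, at 0.0791 ± 0.0133 and 0.0789 ± 0.0523 CPM per kb, a gap smaller than their spread. In pBABE they measured 0.0232 ± 0.00558 and 0.0307 ± 0.00755 CPM per kb, and their ranges overlapped. L1cam was lower still, at 0.0106 ± 0.00505 CPM per kb in caMNK and 0.00873 ± 0.00112 CPM per kb in pBABE, and Chl1 was at or next to 0. Per-length levels of long genes are diluted by introns. Annotated exons make up 64.5% of the span of Slitrk6 and 68.4% of that of Nes. They make up 18.2% and 17.4% of the spans of Ngfr and L1cam. For Nrcam, Ncam1, Cadm1 and Chl1 the shares are 4.89%, 2.92%, 3.19% and 5.13%. The order of the genes on this scale therefore depends on how much of each span is exon.

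**Figure D1:**
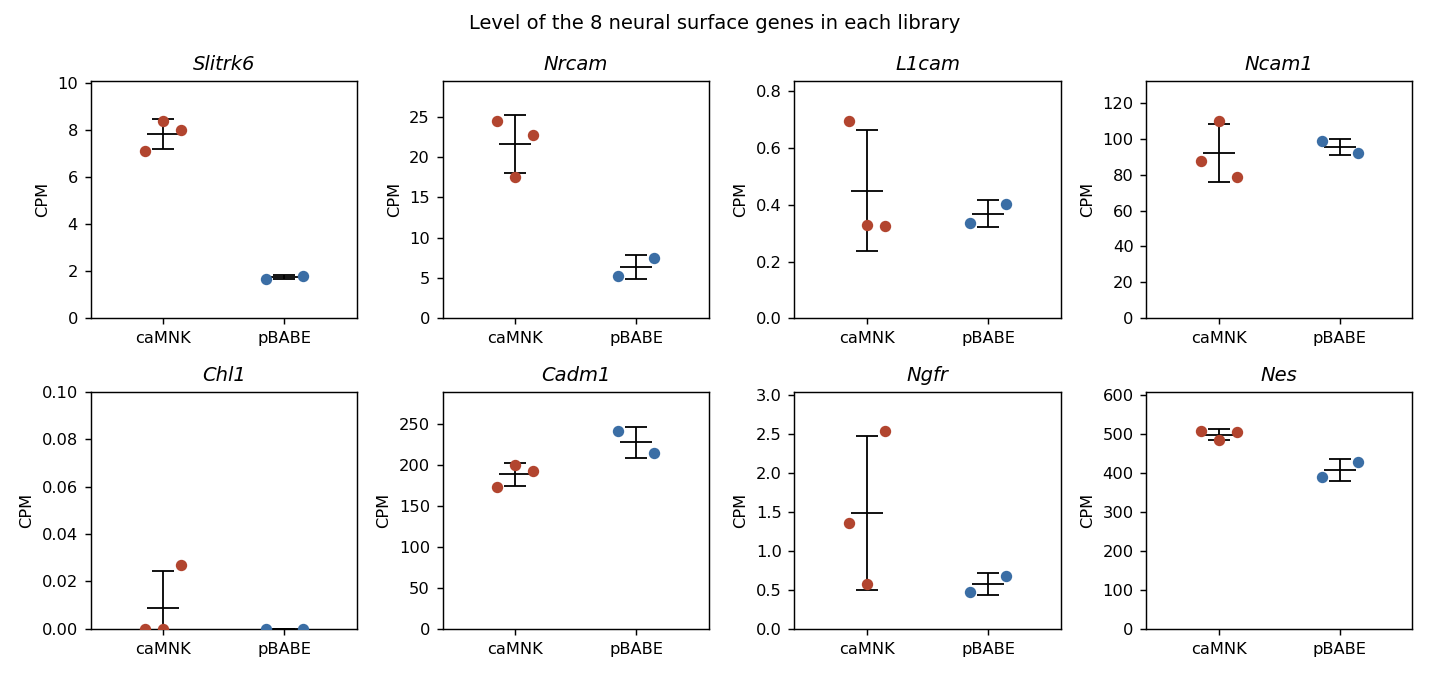
Level in CPM of each of the 8 genes in each library, with caMNK left of pBABE in every panel; points are libraries and bars give the mean ± SD (n = 3 caMNK and n = 2 pBABE), and each panel has its own axis from 0. Slitrk6, Nrcam and Nes lie higher in every caMNK library than in both pBABE libraries, Cadm1 lies lower, and the groups overlap for L1cam, Ncam1 and Ngfr.

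Slitrk6 showed the clearest difference of the 8. It encodes a transmembrane protein with leucine-rich repeats of the Slitrk family, which acts on neurite growth and synapse formation, and in mice it is needed for the nerve supply of the inner ear. It occupies bases 110748580 to 110755149 of chromosome 14, minus strand (mm10), and no other counted gene was found over it in the annotation. It had 204, 408 and 295 counts in the caMNK libraries, which are 7.11, 8.39 and 7.97 CPM, against 70 and 58 counts or 1.68 and 1.80 CPM in the pBABE libraries. The lowest caMNK library was well above the higher pBABE library, and their 95% Poisson counting intervals, 6.17 to 8.16 and 1.36 to 2.32 CPM, were far apart. In the fit over all genes Slitrk6 was 4.52-fold higher in caMNK (log2 fold change 2.18, SE 0.161, edgeR adjusted p = 0.00121). It held rank 6 by p-value among the 17026 tested genes and rank 71 by size of rise.

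Nrcam was the other gene of the 8 past the threshold. It encodes the neuronal cell adhesion molecule of the L1 family, which clusters sodium channels at nodes of Ranvier and guides axons, and binds ankyrin through its tail. Its span covers bases 44328885 to 44601964 of chromosome 12, plus strand. Its 703, 852 and 842 counts in caMNK came to 24.5, 17.5 and 22.8 CPM, and its 219 and 239 counts in pBABE to 5.25 and 7.41 CPM. All caMNK libraries were above both pBABE libraries, and within caMNK replicate 2 was the lowest. It was 3.42-fold higher in caMNK, with edgeR giving an adjusted p of 0.00470 and a log2 fold change of 1.77 (SE 0.196). Without pBABE replicate 1 the gene no longer passed (log2 fold change 1.53, adjusted p = 0.0764), while Slitrk6 passed without each of the 5 libraries in turn, with adjusted p-values of at most 0.0366. That 2 of 7 tested genes rose stands beside 4.42% of all genes, and nothing is read from it because this comparison took part in choosing the genes.

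The promoters of Slitrk6 and Nrcam are shown because these are the 2 genes that passed, and their composition differs. Each is the 250 bases before the RefSeq transcription start (GRCm38.p6, the same assembly as mm10), written 5′ to 3′ on the strand of the gene: Slitrk6 at chr14:110755150-110755399 on the minus strand and Nrcam at chr12:44328635-44328884 on the plus strand. Capitals mark matches to the motifs searched.
Slitrk6: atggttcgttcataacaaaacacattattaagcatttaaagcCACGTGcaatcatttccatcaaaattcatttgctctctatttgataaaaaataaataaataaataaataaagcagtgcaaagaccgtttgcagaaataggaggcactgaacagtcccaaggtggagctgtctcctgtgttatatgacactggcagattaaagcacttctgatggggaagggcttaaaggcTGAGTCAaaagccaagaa
Nrcam: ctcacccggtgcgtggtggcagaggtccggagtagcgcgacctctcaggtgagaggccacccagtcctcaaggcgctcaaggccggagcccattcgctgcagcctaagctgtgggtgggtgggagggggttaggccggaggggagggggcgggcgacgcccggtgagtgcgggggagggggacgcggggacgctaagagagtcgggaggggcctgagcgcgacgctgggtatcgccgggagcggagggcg
The Slitrk6 window is AT-rich, with 37.2% G and C and 3 CG dinucleotides. Of the windows of 10707 tested genes, 1.01% had a lower GC content, and the median held 59.6% GC and 16 CG dinucleotides. The Nrcam window has 72.4% GC and 25 CG dinucleotides, and 88.9% of windows had a lower GC content. Both strands were searched for 5 motifs, chosen with these sequences in view: GCCNNNGGC for AP-2 factors, ACAAT for SOX factors, GCGTGGG for EGR1, TGANTCA for AP-1 and CACGTG, an E-box bound by MITF among others. The Slitrk6 window holds 1 AP-1 match starting 18 bases before the transcription start and 1 E-box match starting 208 bases before it, motifs that 4.67% and 8.28% of the windows hold. The Nrcam window holds none of the 5, and no matches overlap. AP-2, SOX and EGR1 motifs were in 20.3%, 18.4% and 7.12% of windows. RefSeq windows were at hand for 6 of the 8 genes, and outside Slitrk6 the single match was a SOX motif starting 161 bases before the start of Nes. A match describes letters in the window and is not evidence of binding.

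The other L1 family genes were barely detected or not detected at this depth. L1cam encodes L1, the founding member of the family, which promotes neurite growth and, in several carcinomas, invasion. It had 20, 16 and 12 counts in caMNK and 14 and 13 in pBABE, which are 0.697, 0.329 and 0.324 CPM against 0.336 and 0.403 CPM. The groups overlapped, caMNK replicate 1 being the highest of all 5 libraries and the other 2 caMNK libraries the lowest, and the log2 fold change was 0.23 with an SE of 0.441 (edgeR adjusted p = 0.792). The locus, on chromosome X from 73853778 to 73896105 on the minus strand, shares 4664 bases with Arhgap4, which had 1027 to 1840 counts per library, so these few counts may include reads of that neighbour. Leaving out caMNK replicate 1 turned the sign (log2 fold change −0.16, adjusted p = 0.886). Chl1, the close homolog of L1, had 1 count in caMNK replicate 3 and 0 in each of the other 4 libraries. A floor of 3 counts corresponds to 0.0617 to 0.105 CPM per library, and no fold change is given because both groups lie under it.

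Ncam1 and Cadm1 are abundant, and both lie on chromosome 9. Ncam1 encodes the neural cell adhesion molecule, which binds itself on opposing cells and carries polysialic acid in the embryo. It measured 87.4, 110 and 78.7 CPM in caMNK and 98.5 and 92.3 CPM in pBABE, so that caMNK libraries lay above, below and below the pBABE pair (log2 fold change −0.05, SE 0.137, edgeR adjusted p = 0.856). Single caMNK libraries moved this value. Without replicate 3 the log2 fold change was 0.053 (adjusted p = 0.811), and without replicate 2 it was −0.20 (adjusted p = 0.0484), in a fit that called 2325 genes higher and 2617 lower of 16675. The antisense gene Gm11149 lies within Ncam1 over 54304 bases, and its counts came to 23.4% of those of Ncam1. They measured 20.4 ± 3.32 CPM in caMNK and 24.5 ± 0.310 CPM in pBABE, and reads of the 2 genes cannot be told apart without strand.

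Cadm1 encodes a nectin-like adhesion molecule, first known as a tumour suppressor of human lung cancer, that links cells to each other and to protein 4.1 inside the cell. It had 172, 200 and 192 CPM in caMNK against 241 and 214 CPM in pBABE. Every caMNK library was below both pBABE libraries, as in 22.6% of all tested genes, with the nearest pair at 200 and 214 CPM. Its log2 fold change was −0.27 (SE 0.0988, edgeR adjusted p = 0.126), and it passed in that same fit without caMNK replicate 2 (−0.32, adjusted p = 0.00538).

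Ngfr encodes p75, the low-affinity neurotrophin receptor that marks neural crest stem cells and, in human melanoma, the crest-like state. It had low counts, with 39, 28 and 94 counts in caMNK and 20 and 22 in pBABE. These correspond to 1.36, 0.576 and 2.54 CPM in caMNK and 0.480 and 0.682 CPM in pBABE. The caMNK libraries differed among themselves beyond counting error: the 95% Poisson intervals of replicates 3 and 2 were 2.05 to 3.11 and 0.383 to 0.832 CPM. caMNK replicate 2 lay between the pBABE libraries and the other 2 above both. The log2 fold change of 1.35 had an SE of 0.590 and an edgeR adjusted p of 0.192. It was 0.67 without caMNK replicate 3 (adjusted p = 0.364) and 1.80 without caMNK replicate 2 (adjusted p = 0.000977), and without a filter on low counts the adjusted p was 0.000258. By DESeq2 it was 0.0905.

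Nes was the most abundant of the 8. Nestin is the intermediate filament protein of neural stem cells and is found in many melanomas. It measured 508, 484 and 506 CPM in caMNK and 389 and 429 CPM in pBABE. Every caMNK library was above both pBABE libraries, as in 22.3% of all tested genes, but the difference was small, 1.22-fold (log2 fold change 0.29, SE 0.0862, edgeR adjusted p = 0.0760). It passed without caMNK replicate 2 (adjusted p = 0.00493) and with total-count scaling (0.0479), under which the median log2 fold change of all genes was 0.05. Nes alone made up 59.0% to 63.4% of the summed CPM of the 8 genes in caMNK and 52.9% to 57.5% in pBABE, so a sum over the 8 mainly follows this gene.

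**Figure D2:**
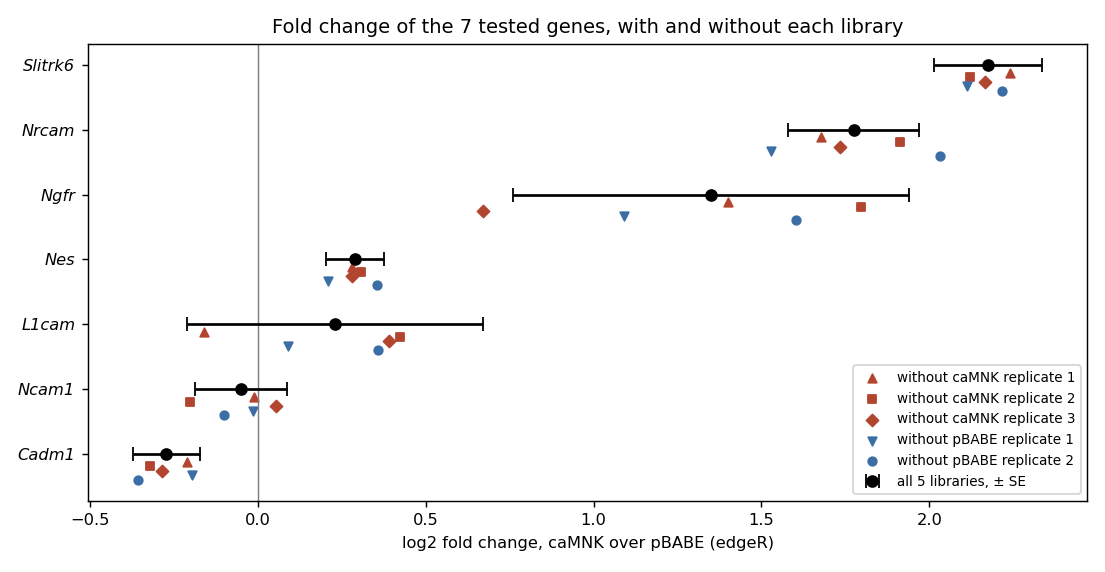
Log2 fold change of caMNK over pBABE for the 7 tested genes, from edgeR; black points with bars give the value with all 5 libraries ± SE, coloured marks the value without 1 library each. Slitrk6 stays between 2.11 and 2.24, whereas Ngfr moves between 0.67 and 1.80 and L1cam and Ncam1 fall on both sides of 0.

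Which caMNK library was the highest differed from gene to gene among the 8. Replicate 2 had the lowest Nrcam, Ngfr and Nes among the caMNK libraries and the highest Slitrk6, Ncam1 and Cadm1. The nuclear non-coding RNAs were also lowest there, at 654 CPM in sum against 925 and 844 CPM in replicates 1 and 3. Their part in the spread of the neural genes was not tested. Among tested genes of at least 200 kb, the length class of Nrcam, Ncam1 and Cadm1, 8.53% rose and 7.60% fell (n = 750), and the median log2 fold change was −0.02.

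The genes whose pattern over the 5 libraries was nearest to that of Slitrk6 and Nrcam differed between these genes. Nearness was the root mean square difference of log2 CPM, each gene centred on its own mean, among 10917 genes. For Slitrk6 the nearest was Dnm3os at 0.126, a transcript antisense to Dnm3, followed by the small nucleolar RNA Snora73b (0.220) and the dynamin gene Dnm3 (0.224). Dnm3os lies within Dnm3, and Snora73b within Rcc1 and Snhg3, so these genes share reads with their hosts. Dnm3os had 414, 827 and 517 counts in caMNK and 164 and 117 in pBABE. Dnm3 had 477, 901 and 570 in caMNK and 220 and 149 in pBABE. With reads counted for both genes, Dnm3 and Dnm3os are not 2 independent neighbours. For Nrcam the nearest were Rab15, a GTPase gene of endosome traffic that shares reads with Fntb (0.0933), and the stromelysin genes Mmp10 (0.120) and Mmp3 (0.158). Mmp10 measured 47.5, 37.9 and 54.4 CPM in caMNK against 12.4 and 18.004 CPM in pBABE, with replicate 2 the lowest of the caMNK libraries, as in Nrcam. Slitrk6 and Nrcam lay 0.317 apart, which put Nrcam at rank 13 from Slitrk6 and Slitrk6 at rank 30 from Nrcam. The search favours genes with a difference between the groups of similar size, and with 5 libraries many genes meet that.

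**Figure D3:**
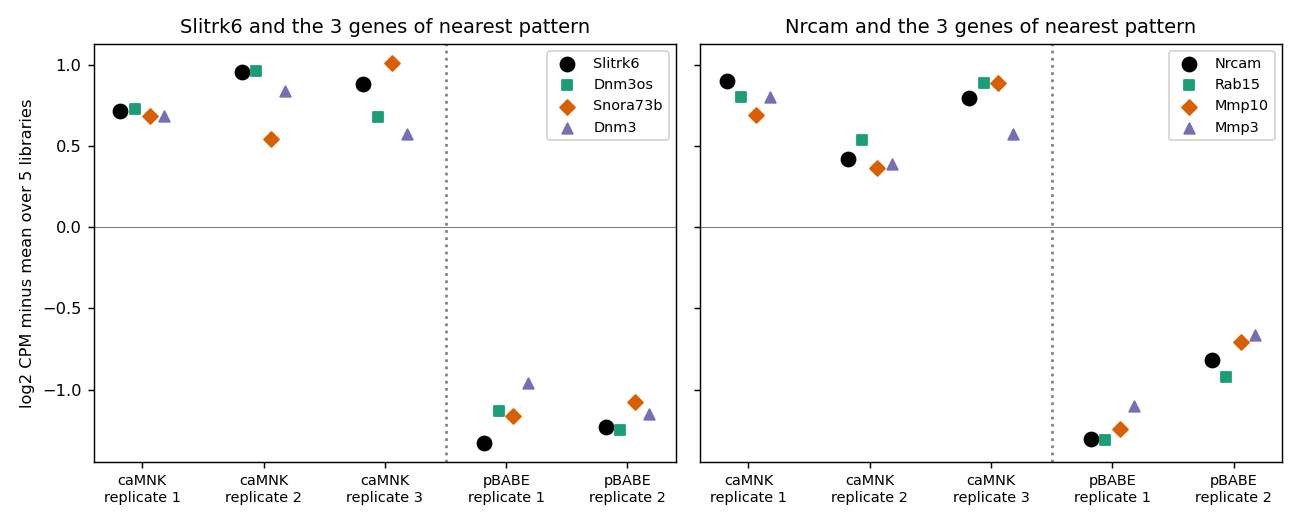
Log2 CPM minus the gene's mean over the 5 libraries, for Slitrk6 (left) and Nrcam (right) with the 3 genes of nearest pattern each; points are libraries, caMNK left of pBABE. Nrcam, Rab15, Mmp10 and Mmp3 are lowest within caMNK in replicate 2, whereas Slitrk6 and Dnm3os are highest there.

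Genes that work with the 8 were followed in 7 lists holding 154 further genes, of which 105 were tested. Of these, 8 rose and 11 fell, which is 7.62% and 10.5%, beside 4.42% and 3.52% of all tested genes. Their median log2 fold change was −0.05, and that of all tested genes −0.0021. Falls were more frequent among long genes, and the lists were not matched for length. Of all tested genes below 10 kb 2.60% fell, of those from 10 to 50 kb 2.98%. The shares were 5.42% from 50 to 200 kb and 7.60% at 200 kb or more. Rises made up 5.21%, 3.70%, 3.52% and 8.53% in the same order. The part of length in the calls of the related genes was not tested. None of the 19 passed without pBABE replicate 1 or without pBABE replicate 2, and 5 passed without caMNK replicate 1. Genes named below that lie outside the naming rule are marked as such.

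Relatives of the adhesion molecules came next. In the list of neural immunoglobulin adhesion genes, 11 of 26 were tested, and 0 rose and 3 fell (median −0.24). Cntnap2, which encodes a neurexin-like protein that partners contactins beside the nodes of Ranvier, measured 22.1 ± 1.88 CPM in caMNK and 36.1 ± 0.696 CPM in pBABE (log2 fold change −0.70, SE 0.101, edgeR adjusted p = 0.00827). Kirrel fell to 211 ± 2.93 CPM in caMNK, against 287 ± 4.02 CPM in pBABE, and Igsf3 to 23.7 ± 0.997 CPM against 33.6 ± 0.908 CPM, with adjusted p-values of 0.0146 and 0.0157. In 16 tested leucine-rich repeat genes of the Slitrk, Lrrtm, Flrt and Lrig groups and their receptors, 1 rose and 0 fell (median −0.05). That was Lrig2, at 19.97 ± 0.854 CPM in caMNK and 14.9 ± 0.507 CPM in pBABE (adjusted p = 0.0416). Lrig1, a feedback inhibitor of receptor tyrosine kinases, stood at −0.30 on the log2 fold scale (adjusted p = 0.0553), and Flrt3, which lies within Macrod2 and shares its reads, one of 0.38 (0.0589). Of 12 tested genes in the list of Cadm and nectin genes and their linkers, 0 rose and 2 fell (median 0.07). Both were linkers inside the cell, and no Cadm or nectin gene itself passed. They were Mllt4, which encodes afadin, the link from nectins to actin, at 134 ± 8.60 CPM in caMNK and 183 ± 8.02 CPM in pBABE (adjusted p = 0.0213), and Epb41l3, a protein 4.1 that binds Cadm1, at 89.3 ± 8.85 and 120 ± 3.54 CPM (adjusted p = 0.0381). Cadm4 had 2.37 ± 0.450 CPM in caMNK and 1.63 ± 0.109 CPM in pBABE (adjusted p = 0.171).

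The list labelled cytoplasmic partners of L1 and NCAM proteins also holds membrane proteins, among them Itgav. Of its 23 tested genes, 0 rose and 4 fell (median −0.20). They include the ankyrin genes Ank2 and Ank1, whose products anchor membrane proteins such as those of the L1 family to spectrin. Ank2 had 6.59, 8.17 and 6.41 CPM in caMNK against 15.1 and 15.2 CPM in pBABE, 2.14-fold lower (log2 fold change −1.10, SE 0.134, edgeR adjusted p = 0.00548). Both groups were well apart, and replicate 2 was the highest caMNK library. Ank1, which shares reads with the antisense gene Gm15816, fell by 0.94 on the log2 scale (adjusted p = 0.0146). Fyn, a kinase that acts downstream of NCAM and shares reads with the antisense gene Gm16365, measured 39.4 ± 0.194 CPM in caMNK and 55.7 ± 0.245 CPM in pBABE (adjusted p = 0.0114). The fourth, Itgav, an integrin subunit that binds L1 and lies outside the naming rule, measured 188 ± 31.5 and 275 ± 6.23 CPM (adjusted p = 0.0420).

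Among the neurotrophin ligands, receptors and p75 partners, 17 were tested, and 2 rose and 1 fell (median −0.07). The 3 belong to the sortilin family of protein-sorting receptors, some of which, such as sortilin itself, pair with p75 to bind unprocessed neurotrophins. Sort1 had 15.5, 13.0 and 16.1 CPM in caMNK against 29.6 and 26.5 CPM in pBABE, 1.89-fold lower (log2 fold change −0.92, SE 0.121, edgeR adjusted p = 0.00720). Sorcs2 was higher, at 20.5, 18.9 and 19.5 CPM in caMNK against 11.6 and 14.9 CPM in pBABE (log2 fold change 0.57, adjusted p = 0.0358). Sorcs1 had a log2 fold change of 2.33 (SE 0.410, adjusted p = 0.0149) but rested on 10 and 3 counts in pBABE, and measured 0.891 ± 0.128 CPM in caMNK and 0.166 ± 0.104 CPM in pBABE. In all 3 the groups did not overlap, as in 22.3% of all tested genes on the higher side and 22.6% on the lower.

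The intermediate filament list, the relatives of Nes, held 7 tested genes, of which 2 rose and 0 fell (median 0.37). Nefl and Nefm, the light and medium neurofilament genes, measured 204 ± 24.3 and 286 ± 34.3 CPM in caMNK and 111 ± 6.47 and 161 ± 15.1 CPM in pBABE. Their log2 fold changes were 0.88 and 0.83, with edgeR adjusted p-values of 0.00685 and 0.00827. The annotation has Nefl and Nefm overlapping by 5233 bases on opposite strands, and with reads counted for both genes the pair is not 2 independent rises. Gfap, the filament gene of astrocytes, had 3 to 16 counts per library, lies within Gm26668, and stood at a log2 fold change of 1.18 (adjusted p = 0.265).

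**Figure D4:**
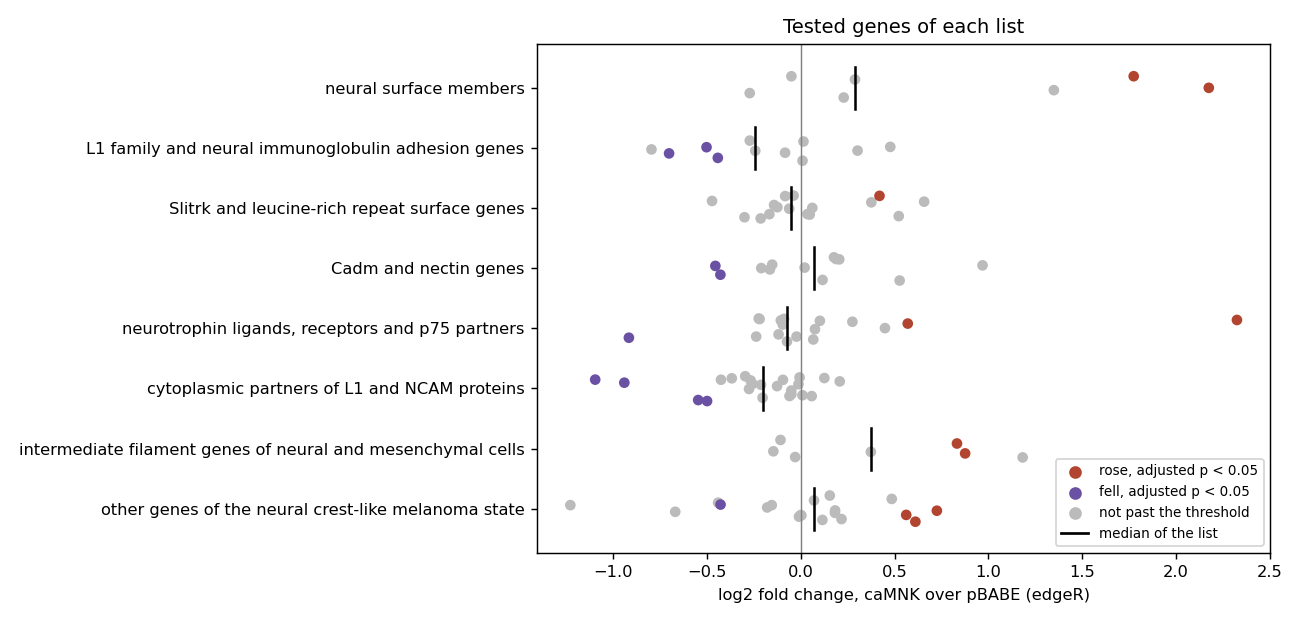
Log2 fold change of caMNK over pBABE for each tested gene of the 8 neural surface genes (top row) and of the 7 lists of related genes; red points rose and purple points fell at an edgeR adjusted p under 0.05, grey points did not pass, and black bars mark the median. The calls in the lists labelled immunoglobulin adhesion genes, Cadm and nectin genes, and cytoplasmic partners are all falls. In the Cadm and nectin list they are Mllt4 and Epb41l3, which encode linkers inside the cell. Cntnap2, in the immunoglobulin list, encodes a neurexin-like protein. The calls among intermediate filament genes are rises.

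The other genes of the crest-like state moved in part. Of 19 tested, 3 rose and 1 fell (median 0.07). The transcription factor genes Tfap2b and Tfap2a, which act in neural crest induction, measured 200 ± 11.6 and 42.0 ± 3.12 CPM in caMNK and 121 ± 2.15 and 28.4 ± 0.182 CPM in pBABE (edgeR adjusted p = 0.00537 and 0.0146). Sox2, a stem cell factor gene that lies inside Sox2ot and shares its reads, measured 227 ± 30.1 CPM in caMNK and 149 ± 2.83 CPM in pBABE (adjusted p = 0.0205). Tfap2a shares reads with the antisense gene Gm26688. Tmem176a, outside the naming rule and overlapping Tmem176b by 578 bases, measured 57.3 ± 1.37 and 77.1 ± 6.44 CPM in caMNK and pBABE (adjusted p = 0.0247). Other genes of this list, outside the naming rule, were well detected and did not pass. Aqp1 had 10367 to 19969 counts per library (log2 fold change 0.22, adjusted p = 0.190), and Gfra2 934 to 1656 (−0.16, 0.314). Foxd3 and Pax3 had 218 to 367 and 687 to 1196 counts per library (adjusted p = 0.775 and 0.293). Several defining genes had few or 0 counts in both groups. Sox10, the crest and glial factor gene that persists in the human crest-like state, had 2 counts in caMNK replicate 3 and 0 in the other 4 libraries. Erbb3 had 4 to 8 counts in caMNK libraries and 14 and 12 in pBABE libraries, and did not pass (log2 fold change −1.23, edgeR adjusted p = 0.0997). Rxrg went the other way, with 6, 16 and 8 counts in caMNK and 1 and 3 in pBABE. It did not pass the filter on low counts. Gfra3, Rspo3 and Dlx5 had at most 2 counts in any library.

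Markers of glia, neurons and other cell types were looked at for the same reason. Of 14 Schwann cell and glial markers, 9 were tested, and 1 rose: Egr2, outside the naming rule, at 0.858 ± 0.0721 CPM in caMNK and 0.369 ± 0.0474 CPM in pBABE (edgeR adjusted p = 0.0427). The list summed to 207 to 242 CPM in caMNK and 219 to 220 CPM in pBABE, of which Cnp, which shares reads with Dnajc7, gave 187 ± 20.8 and 172 ± 3.03 CPM. Pmp22 and Prx measured 22.5 ± 3.19 and 9.49 ± 1.24 CPM in caMNK and 28.3 ± 2.15 and 9.05 ± 0.0422 CPM in pBABE. Of 12 neuron markers, 7 were tested, and 2 rose and 0 fell (median log2 fold change −0.05), with sums of 286 to 312 CPM in caMNK and 260 to 267 CPM in pBABE. In 3 of the 7 every caMNK library lay above both pBABE libraries, and in 3 below, beside 22.3% and 22.6% of all tested genes. Of the 2 that rose, 1 was Syn1, at 220 ± 14.2 and 171 ± 1.07 CPM (adjusted p = 0.0456). Timp1 lies within Syn1, and its counts equal 96.2% of those of Syn1. Syn1 held most of the summed CPM in both groups, so the sums mainly follow this gene and its shared reads. The other that rose was Stmn2, outside the naming rule, at 1.32 ± 0.197 and 0.362 ± 0.0304 CPM (adjusted p = 0.0110). Uchl1, also outside the rule, had 328, 400 and 508 counts in caMNK against 750 and 550 in pBABE, and did not pass. Tubb3, which lies within Gm20388, measured 36.7 ± 3.15 CPM in caMNK and 45.7 ± 0.184 CPM in pBABE (log2 fold change −0.32, adjusted p = 0.0822). Map2 measured 26.0 ± 7.38 CPM in caMNK and 27.1 ± 2.98 CPM in pBABE (adjusted p = 0.898), and Rbfox3, which marks mature neurons, had at most 4 counts in any library.

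Melanocyte markers of the labelled cell type were mostly absent at this depth. Of 12, 2 were tested and 8 had under 3 counts in every library, and Tyrp1, Dct and Slc45a2 had 0 counts in all 5. Mitf measured 5.18 ± 1.14 CPM in caMNK and 6.09 ± 0.236 CPM in pBABE (edgeR adjusted p = 0.502), Pmel, which shares reads with Cdk2, 0.393 ± 0.0560 and 0.252 ± 0.0502 CPM (0.370), and Mc1r at most 5 counts per library. Fibroblast markers summed to 659 to 931 CPM in caMNK and 915 to 978 CPM in pBABE. Of 6 tested, 0 rose and 1 fell, Col1a1 (93.0 ± 17.2 and 158 ± 8.39 CPM, adjusted p = 0.0164), while Col3a1 and Pdgfrb had adjusted p-values of 0.399 and 0.235. Of 3 tested endothelial markers, Cdh5 fell to 2.51 ± 0.275 CPM in caMNK, against 6.85 ± 2.76 CPM in pBABE (adjusted p = 0.0141), with the list summing to 3.73 to 4.04 CPM in caMNK and 5.52 to 9.51 CPM in pBABE, while Tek and Pecam1, at log2 fold changes of 0.82 and 1.07, did not pass (adjusted p = 0.213 and 0.264). Tie1 had 0 counts. The immune list summed to 13.3 to 18.2 CPM in caMNK and 13.4 to 14.97 CPM in pBABE. Most of that was Csf1r, which shares reads with Hmgxb3, then Cd68 and Itgam. Cd3e had 0 counts in every library.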

How the data were processed

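The authors deposited raw read counts per gene symbol, 1 table per library with a gene length. The submitters' processing notes name the mm10 build with STAR 2.5.3, featureCounts 1.5.3, Trimmomatic 0.32, SAMtools 0.1.19, DESeq2 and FastQC 0.11.2, and per the labels' protocols the kit was TruSeq Stranded Total RNA. Its annotation and the settings for counting reads were not given in the sources used here. Against GENCODE M21 on the same build, 21639 of 27739 multi-exon genes had a deposited length equal to the genomic span and 0 equal to the summed exons, so the deposited counts cover introns. In 0 of 926 opposite-strand and 0 of 774 same-strand pairs of a nested gene (at least 100 counts) and its host did the nested gene exceed the host in any library, as when reads are counted for both genes without strand. Genes with an overlapping gene of at least 10% of their counts are named as sharing reads.

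The 3 caMNK and 2 pBABE libraries were compared with edgeR 4.0.16 in R 4.3.3: filterByExpr, TMM, robust quasi-likelihood F test, group as the single term, and Benjamini-Hochberg adjustment over 17026 genes at 0.05. SEs were derived from the F statistic. The test was run on simulated counts with the same dispersion for every gene. That is a simpler spread than in these libraries, so nothing about these data is read from it. No 2 libraries agreed within sampling noise (lowest chi-square per degree of freedom 6.14). Poisson intervals (95%) and floors (3 counts) cover counting error. Log2 CPM for nearest patterns used a prior count of 2 and genes with a mean of at least 1.

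Genes, lists and motifs were chosen with earlier results of these data known. Named are the 8 genes, Mknk1, the 3 tested genes of lowest p in each list of related genes, the 3 most abundant of each marker or RNA list, and the 3 nearest patterns of Slitrk6 and Nrcam. Alternatives covered scaling, filters, DESeq2 1.42.0, single libraries, the replicate number as a block and shared reads.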

Additional observations from a re-analysis of the deposited data

How the results depend on the processing

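Slitrk6 kept its direction and its call in each of the 12 alternatives run, and Nrcam in 11, the exception being the fit without pBABE replicate 1 given above. The sign of Ncam1, not past the threshold, turned with total-count scaling (log2 fold change 0.0014) and with the replicate number as a block (0.041). Leaving out 1 library each gave −0.204 to 0.053 for Ncam1, above 0 without caMNK replicate 3, and −0.16 to 0.42 for L1cam, below 0 without caMNK replicate 1. Counts of calls moved with single libraries: such fits gave 11 to 2325 genes higher and 12 to 2617 lower in caMNK, 1 to 4 and 0 to 2 of the 8 genes, and 0 to 15 and 0 to 24 of the related genes. The highest of each was without caMNK replicate 2, and the lowest counts of all genes were without pBABE replicate 1. Without a filter on low counts 1591 genes were higher, 1330 lower and 18 related genes lower. Without genes that share reads, which tests 10678 genes, 415 were higher and 310 lower, with 4 and 7 related genes. Rises made up 68.2% of calls with total-count scaling and 55.7% with TMM. The causes were not tested. No label states that same-numbered libraries were paired. They had correlations of their deviations of −0.055 and −0.025 over genes. The deviations of 2 pBABE libraries mirror each other, so these values do not settle whether the numbers mark a pairing. With the replicate block 1477 genes were higher and 1231 lower, and 2 of the 8 genes rose. Replicate 3 exists in caMNK only, so its block term absorbs that library, which then adds nothing to the fold change. The log2 fold change of Ngfr was 0.669 with the block and 0.670 without caMNK replicate 3. Nothing is read from the larger number of calls. L1cam and Chl1 had at most 20 counts and 1 count per library, and those of L1cam may include reads of Arhgap4. Ngfr differed widely between the caMNK libraries.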
